A study of Drosophila melanogaster with 3 samples.

Results

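The genes of the La and La-related proteins are La, larp, Larp4B and Larp7, 4 of 13968 annotated protein-coding genes of Drosophila melanogaster. They were selected on a result of these data, since the strongest point source of the whole pooled list lies in larp, so the rank and signal of that site are given as a description. For each gene, all listed point sources in the gene body or within 5 kb of it were taken. A point source is the most enriched base of a peak. The reproducible list, which the file descriptions name as the optimal set passing an irreproducible discovery rate threshold, held 27 such point sources out of 9624.

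The study mapped the chromatin occupancy of Grauzone, a zinc finger protein encoded by grau, with ChIP-seq, in which chromatin fragments bound by a protein are immunoprecipitated and sequenced. There was 1 group, whole embryos of 0 to 24 h with both sexes pooled, from a transgenic line carrying grau with GFP at its C-terminal end, and the immunoprecipitation used an antibody against GFP. It had 3 biological replicates, and the control experiment named in the labels was not analysed here. All the lists carry the transgene and there is no group without it, so no comparison of conditions was possible.

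Proteins of this family share the La motif, an RNA-binding fold usually paired with an RNA recognition motif. La itself binds the uridine-rich 3′ ends of new RNA polymerase III transcripts and protects them. The La-related proteins bind other RNAs: the larp protein works with poly(A)-binding protein on mRNAs and is known in flies for roles in spermatogenesis and early embryonic divisions. Its human ortholog binds mRNAs that answer to the TOR kinase. Human LARP4B binds mRNA and poly(A)-binding protein, and Larp7 holds the 7SK small nuclear RNA in the particle that restrains the elongation kinase P-TEFb.

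The windows printed here hold a point source at base 51 and 50 bases on either side of it, from the dm6 genome (RefSeq release 6 sequence). They are written 5′ to 3′ on the strand of the named gene. Capitals mark matches to the words searched, which are listed with the base composition. The first 3 are shown because they hold the 3 strongest point sources in the larp body.
larp, strongest point source, chr3R:28326552-28326652: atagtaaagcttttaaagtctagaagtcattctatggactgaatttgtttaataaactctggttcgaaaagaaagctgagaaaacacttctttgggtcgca
larp, intron upstream of larp-RF, chr3R:28332459-28332559: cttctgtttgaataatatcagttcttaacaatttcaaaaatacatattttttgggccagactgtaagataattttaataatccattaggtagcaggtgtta
larp, farther upstream of larp-RF, chr3R:28333195-28333295: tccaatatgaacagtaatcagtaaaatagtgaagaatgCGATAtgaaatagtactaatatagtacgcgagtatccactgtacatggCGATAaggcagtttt
The next 5 are the outermost larp start, the strongest promoter point source of each other gene, and the strongest point source near Larp4B.
larp, upstream of the first start, chr3R:28336535-28336635: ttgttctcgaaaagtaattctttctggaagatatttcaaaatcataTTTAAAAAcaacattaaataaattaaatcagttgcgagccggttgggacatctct
La, upstream of the start, chr2L:20350082-20350182: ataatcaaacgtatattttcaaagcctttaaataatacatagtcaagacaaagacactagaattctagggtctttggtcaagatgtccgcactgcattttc
Larp4B, intron before the second start, chr3L:3225519-3225619: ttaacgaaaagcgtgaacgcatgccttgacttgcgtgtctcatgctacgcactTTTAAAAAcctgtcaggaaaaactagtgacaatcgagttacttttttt
Larp4B, upstream flank, chr3L:3222995-3223095: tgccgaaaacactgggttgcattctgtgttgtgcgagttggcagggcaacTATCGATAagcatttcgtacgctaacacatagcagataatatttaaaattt
Larp7, upstream of the start, chrX:9243572-9243672: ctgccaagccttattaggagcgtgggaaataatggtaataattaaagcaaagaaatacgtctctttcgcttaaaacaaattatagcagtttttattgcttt

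The 4 genes differed widely in how much listed occupancy they held. The larp gene spans chr3R:28318162-28336440 on the minus strand (18.28 kb, 7 transcripts with 6 separate starts) and had 13 reproducible point sources, 8 of them in the gene body. Larp4B, at chr3L:3224838-3236604 on the plus strand (11.77 kb, 3 transcripts with 2 starts), had 8, of which 3 lay in the body. La, at chr2L:20348393-20350012 on the minus strand (1.62 kb, 1 start), had 4, and Larp7, at chrX:9243817-9245925 on the plus strand (2.11 kb, 1 start), had 2. All of those of La and Larp7 lay outside the transcribed gene. With a flank of 2 kb, Larp4B had 5 and Larp7 had 1, and with 10 kb Larp7 had 4.

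Some listed occupancy in the gene or within 5 kb was common, at 63.7% of protein-coding genes, and the median gene had 1 point source. Counts at or above that of larp were held by 52 genes (0.372%) and at or above that of Larp4B by 247 genes (1.77%). For La the number was 1910 genes (13.7%) and for Larp7 it was 5854 genes (41.9%). Gene size enters these counts. Per kb of gene and flanks, larp had 0.460, Larp4B 0.368, La 0.344 and Larp7 0.165 point sources, against a median of 0.0829 over all protein-coding genes. In the body alone, 22 of 1315 protein-coding genes of 10 to 30 kb (1.67%) had 8 or more, as larp did, and their median was 1. Point sources that share an interval are each counted: the 27 lie in 22 distinct intervals, and all 9624 reproducible ones in 9291.

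**Figure D1:**
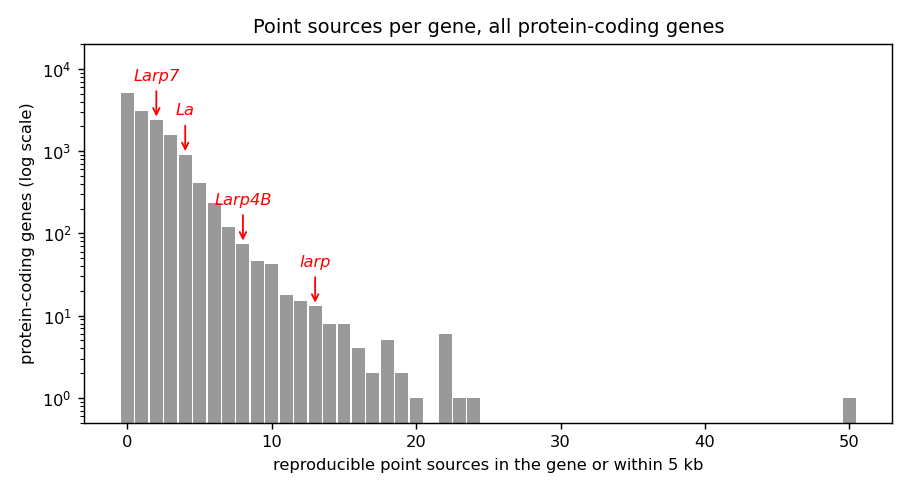
Number of protein-coding genes (log scale) by how many reproducible point sources they held in the gene or within 5 kb. Arrows mark Larp7 at 2, La at 4, Larp4B at 8 and larp at 13.

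Each of the 4 genes had a reproducible point source within 500 bp of one of its annotated starts, here called a promoter point source. The share over all protein-coding genes was 32.0%. A start of another gene on the opposite strand lay within 500 bp for larp, La and Larp7, on the upstream side in each case. Over all genes, those with such a start within 500 bp on either side are here called divergent. Of the divergent protein-coding genes, 54.8% had a promoter point source. Larp4B had no such neighbour. In each of the 3 replicate lists taken singly, larp, La and Larp4B had a promoter point source, not always the reproducible one, against 39.5% of protein-coding genes. Larp7 had none in the list of replicate 1, so its call rests on replicates 2 and 3: when either was left out and both others had to hold the site, 3 of the 4 genes stayed in. With a distance of 250 bp in place of 500 bp, Larp4B dropped out and the other genes stayed in.

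Signal values are the authors' own and are used to rank peaks within a list or are divided by the median of their own list. At the strongest point source, chr3R:28326602, the larp gene had a signal of 13771.9 in replicate 1, 8491.7 in replicate 2 and 8103.1 in replicate 3. These were 268, 220 and 208 times the median of each list. The 3 values lay close together, with a mean of 231.9 ± 32.1 (SD, n = 3) times the median. The site ranked first in replicates 1 and 2, second in replicate 3, and first in the pooled list with a signal of 30239.7.

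The larp summit stood clear of the rest of its own locus but not of the strongest peaks elsewhere. Among all the point sources of each list in larp or within 5 kb of it, it was 14.3, 13.3 and 10.3 times the next strongest in replicates 1, 2 and 3 (mean 12.6 ± 2.09, SD, n = 3). The next strongest was in the upstream flank, at chr3R:28340838, in replicate 1 and in a larp intron, at chr3R:28332509, in replicates 2 and 3. Its share of the summed signal of the same point sources was 76.5%, 73.4% and 67.4% in the same replicates (mean 72.4 ± 4.65%). Against the strongest peak elsewhere in the genome, its signal was 1.11, 1.06 and 0.897 times as high. These last ratios fall on both sides of 1, so the first place in the pooled list, at 1.03 times the next, is within the spread of the replicates.

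The position of that summit varied by 14 bp: the replicates placed it 6 bp and 12 bp below and 2 bp above the pooled coordinate. It lies in an intron of the longer transcripts, 338 bp upstream of the larp-RA start and 361 bp upstream of the larp-RE start. Both are internal starts of the gene, and the site is far inside the body of the transcripts that begin upstream. Its interval, chr3R:28326044-28327599, is 1556 bp wide against a median of 360 bp, and 8 of 9291 distinct reproducible intervals, this one included, were at least as wide. The same interval holds a weak second point source, chr3R:28327399, with a signal of 313.3, found in replicates 2 and 3.

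Of the 6 larp starts, 5 had a reproducible point source within 500 bp. The outermost, larp-RD, had one 145 bp upstream, in the 449 bp between it and the divergent noncoding gene asRNA:CR46104. That site had 3.25, 2.57 and 7.46 times the list median in replicates 1, 2 and 3. The start shared by larp-RG and larp-RH had one 193 bp upstream, with 5.20, 6.47 and 7.55 times the median in the same order. These 3 values are closer together than those at larp-RD, and the ranges of the 2 sites overlap.

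The larp-RF start had its nearest point source 384 bp downstream in the 5′ UTR, with 5.57, 1.76 and 0.649 times the median in replicates 1, 2 and 3. It was the least even of the larp promoter sites, ranking 2621 in replicate 1 and 19887 in replicate 3. The exception among the starts was larp-RB, whose nearest point source lay 656 bp upstream, with 3.82, 5.12 and 11.5 times the median. Every larp promoter site other than that of larp-RA and larp-RE was below 8 times the median in each replicate.

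Away from starts, a pair of intronic sites between larp-RF and the larp-RG start carried more signal than most larp promoters. At chr3R:28332509, 1291 bp upstream of larp-RF, the values were 14.7, 16.5 and 20.3 times the median in replicates 1, 2 and 3. At chr3R:28333245, 2027 bp upstream of larp-RF, they were 14.2, 11.6 and 10.9 times. The 2 sites were about equal in replicate 1, and the first was higher in replicates 2 and 3. The first ranked between 605 and 741 in the replicate lists and the second between 780 and 1737. The remaining site in the body, at chr3R:28330633, was found in replicates 2 and 3 at 4.09 and 4.03 times the median.

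The other 4 point sources of the larp locus lie in the upstream flank at other genes. The interval between Gfat2, which encodes an enzyme of the hexosamine pathway, and Moca-cyp, a cyclophilin gene, held 2: one 175 bp upstream of Gfat2 (4.91, 4.40 and 10 times the median in replicates 1, 2 and 3) and one 193 bp upstream of Moca-cyp (0.379 and 0.817 times in replicates 1 and 2). An intron of Moca-cyp held the other 2, at 38 bp and 264 bp upstream of the start of the noncoding gene asRNA:CR46105. The nearer of these had 18.8, 12.4 and 13.1 times the median and was the third strongest of the locus. These flanking sites are counted with larp by distance alone.

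**Figure D2:**
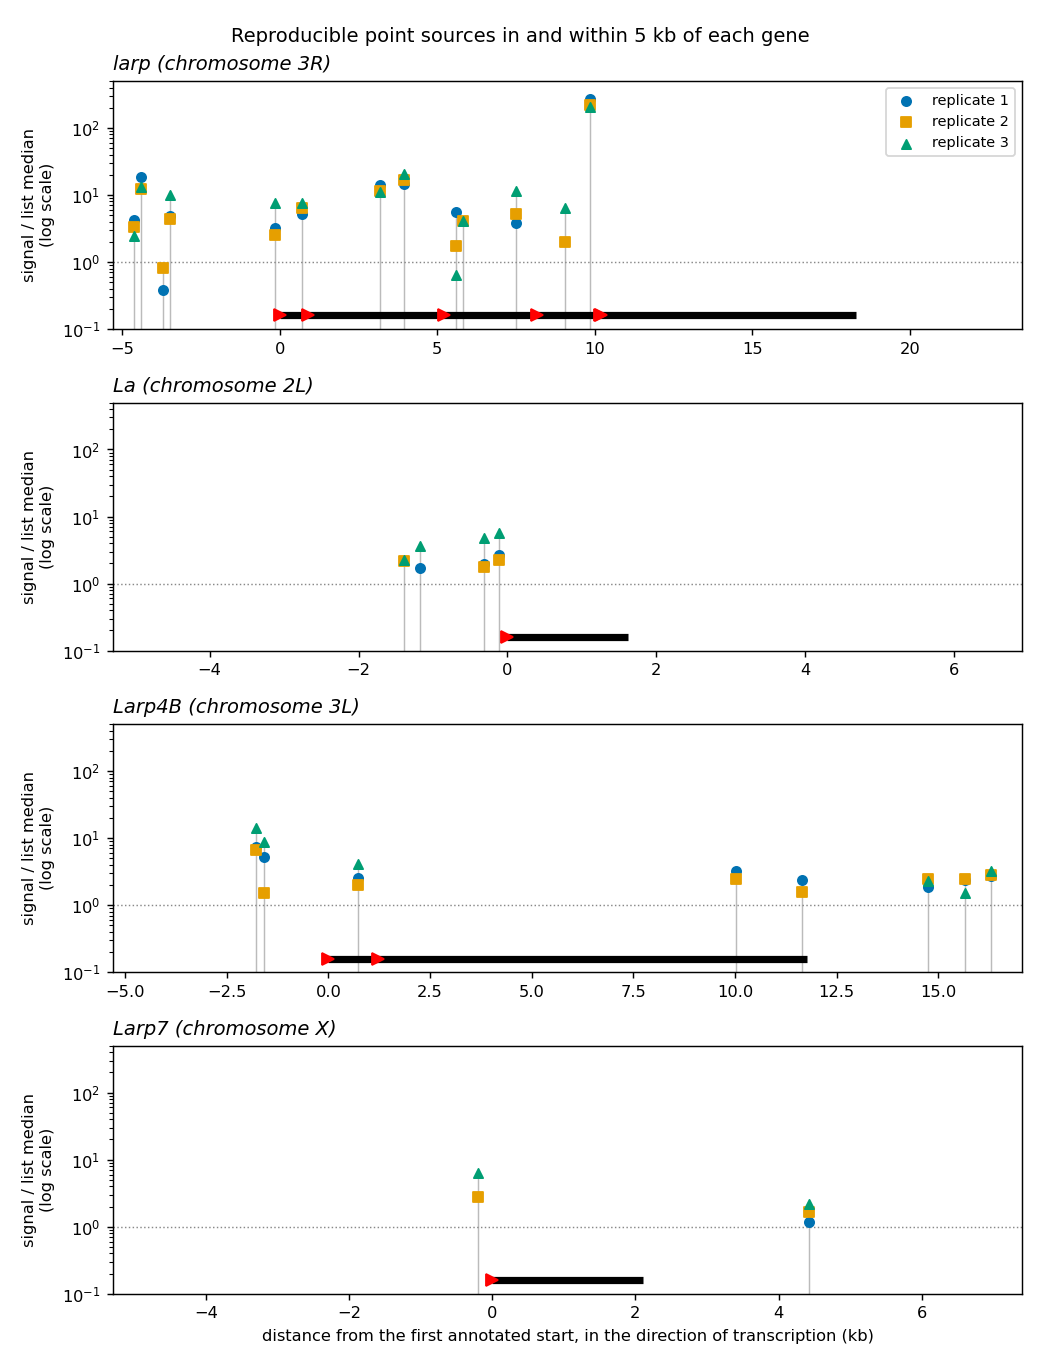
Signal divided by the list median (log scale) at each reproducible point source, in each replicate, against distance from the first annotated start in the direction of transcription. Black bars are the gene bodies, red arrowheads the annotated starts, and the dotted line a ratio of 1. The larp site with a mean of 231.9 stands above all the others, which are at 20.3 or less.

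La had 2 point sources in the 422 bp between its start and that of RtGEF, a divergent gene. The one 120 bp upstream of La, at chr2L:20350132, had signals of 136.7, 87.2 and 220.4 in replicates 1, 2 and 3, or 2.66, 2.25 and 5.65 times the list median. Replicate 3 was the highest, and the mean was 3.52 ± 1.86 (SD, n = 3). The second, at chr2L:20350332, is 320 bp from La but 102 bp from RtGEF and had 1.94, 1.77 and 4.79 times the median. It was below the first in every replicate, though the ranges overlap.

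The La promoter point source of the pooled data falls in an annotated 33 bp fragment of the transposable element 1360, at chr2L:20350107-20350139. Its position in replicate 3, chr2L:20350128, also does. Those in replicates 1 and 2, chr2L:20350151 and chr2L:20350091, lie outside the fragment on either side. Of all reproducible point sources, 24 of 9624 (0.249%) lie in an annotated element. How reads that match several copies were treated is not given in the sources used here, and the part this played in the La value was not tested. The last 2 point sources of the La locus lie in an intron of RtGEF, 756 bp and 965 bp downstream of its start, and each was found in 2 replicates. Because of these, leaving out replicate 3 leaves 2 of the 4 La point sources.

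Larp4B has 2 starts, with the listed promoter point source between them. This site, chr3L:3225569, is in an intron 731 bp downstream of the start shared by Larp4B-RA and Larp4B-RD and 484 bp upstream of the Larp4B-RB start. Its signal was 131.1, 76.1 and 160.3 in replicates 1, 2 and 3, or 2.55, 1.97 and 4.11 times the median (mean 2.88 ± 1.11, SD, n = 3). Its position was the least stable of the 4 main sites: the replicates placed it 5 bp above and 40 bp and 87 bp below the pooled coordinate. In replicates 2 and 3 it thus lay 524 bp and 571 bp from the Larp4B-RB start, outside the promoter distance, and the promoter point sources of those lists taken singly were other sites.

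Beyond the reproducible list, the pooled list held a point source 91 bp inside the shared Larp4B-RA and Larp4B-RD start, with a signal of 146.4 and rank 12085. All 3 replicates had one there, at ranks 10639, 10579 and 27525. A further pooled point source lay 355 bp inside the Larp4B-RB start, with a signal of 187.3, and was found in replicate 1. So every annotated Larp4B start had a point source within 500 bp in the pooled list, and the one in the reproducible list was near its outer limit of distance.

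The strongest sites counted with Larp4B were not at its own starts. The interval between RpL28, a ribosomal protein gene, and eIF1, a translation initiation factor gene, held 2, and the stronger had 7.33, 6.69 and 13.9 times the median in replicates 1, 2 and 3. The other, 89 bp upstream of eIF1, had 5.29, 1.54 and 8.79 times the median. In the Larp4B 3′ UTR there were 2 more, with signals of 324.5 and 211.9 in the pooled data, both found in replicates 1 and 2 and in neither case in replicate 3. The other 3 lay 9 bp, 915 bp and 1557 bp upstream of CG17746, all between 1.52 and 3.26 times the median in every replicate.

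Larp7 shares a 350 bp divergent promoter with mxc, whose protein organises the histone locus body. Its point source, chrX:9243622, lies 195 bp upstream of Larp7 and 155 bp upstream of mxc. It was absent from the list of replicate 1 and had signals of 108.3 in replicate 2 and 247.0 in replicate 3, or 2.80 and 6.33 times the median (mean 4.57 ± 2.50, SD, n = 2). Replicate 3 also listed a weaker point source 9 bp upstream of the Larp7 start, with a signal of 37.1. The other point source, chrX:9248244, is in an intron of Dsor1, the gene of a kinase in the MAP kinase cascade, and had 1.17, 1.64 and 2.19 times the median. Without replicate 2 or without replicate 3, 1 of the 2 Larp7 point sources was left.

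By strongest reproducible promoter point source, the order was larp at 231.9 ± 32.1, Larp7 at 4.57 ± 2.50, La at 3.52 ± 1.86 and Larp4B at 2.88 ± 1.11 times the list median (SD, n = 3, and n = 2 for Larp7). The Larp7 mean leaves out replicate 1, where its site was not listed. Its place above La and Larp4B therefore holds for replicates 2 and 3 only. The replicate values of Larp7, La and Larp4B ran over 2.80 to 6.33, 2.25 to 5.65 and 1.97 to 4.11, so these ranges overlap. Within a replicate the genes kept that order: 2.80, 2.25 and 1.97 in replicate 2, and 6.33, 5.65 and 4.11 in replicate 3. In replicate 1, La was at 2.66 and Larp4B at 2.55. Whether these genes differ was not tested. The larp values did not overlap those of any other member in any replicate. Since the family was selected on that larp site, this is no separate result. Against the median of the 9624 strongest peaks of each list, the same means were 65.3 for larp, 1.16 for Larp7, 0.934 for La and 0.775 for Larp4B. In the reproducible list, with a median signal of 439.2, the promoter sites of larp (30239.7) and Larp7 (491.4) were above the median and those of La (427.0) and Larp4B (352.5) below it.

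**Figure D3:**
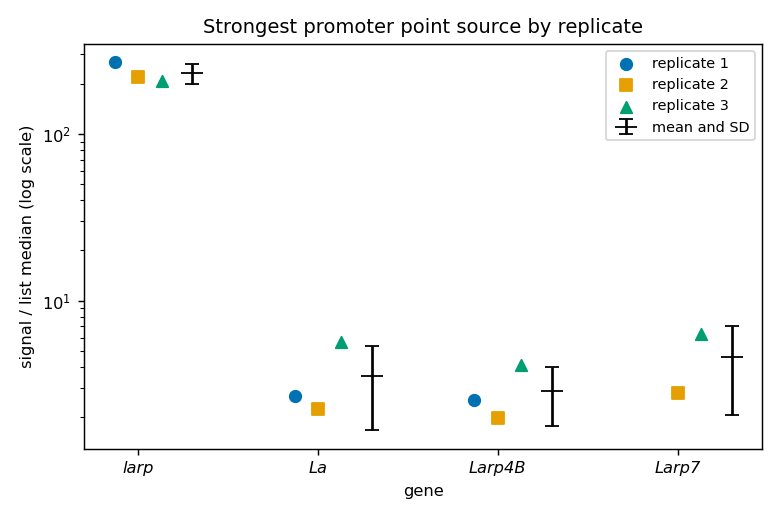
Signal divided by the list median (log scale) at the strongest reproducible promoter point source of each gene and its match within 100 bp in each replicate, one symbol for each replicate, with mean and SD. The larp values lie between 208 and 268. Those of the other genes lie between 1.97 and 6.33, with none for Larp7 in replicate 1.

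Of the 27 point sources, 19 (70.4%) had one within 100 bp in all 3 replicate lists, against 88.9% of all reproducible point sources. The other 8 had one in 2 lists. Of the 27, 12 were above the median signal of the reproducible list. Replicate 3 gave the highest value relative to its median at 12 of the 19 point sources (63.2%), and it did so at 64.7% of the 8560 reproducible point sources found in all lists. Medians over those 19 were 4.30, 2.83 and 7.46 in replicates 1, 2 and 3, and over the 8560 they were 3.50, 3.45 and 4.44. A high replicate 3, as at La and Larp4B, was therefore about as frequent at these genes as over the whole list.

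**Figure D4:**
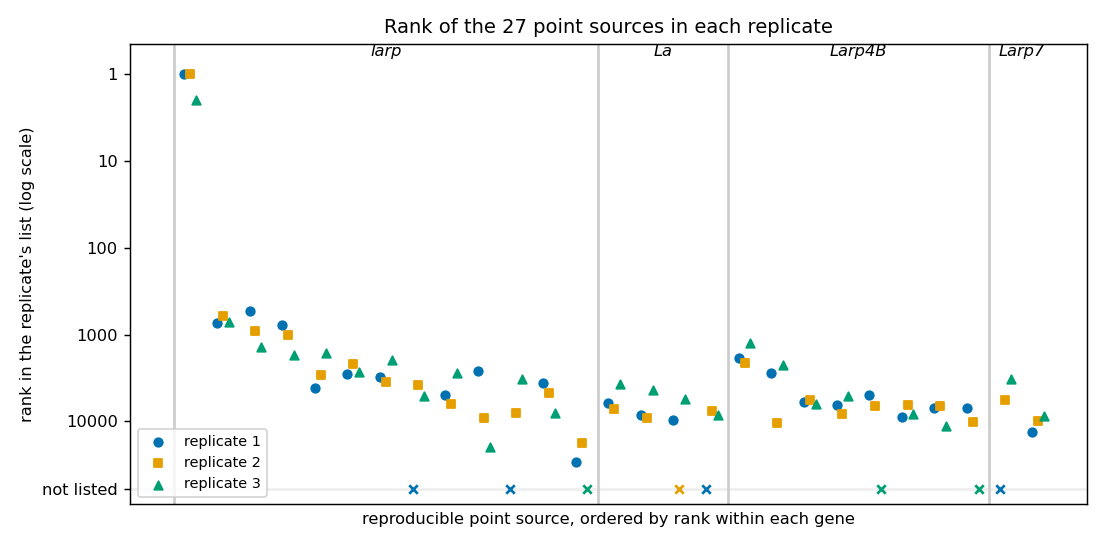
Rank of each of the 27 reproducible point sources in the list of each replicate (log scale, rank 1 at the top), ordered within each gene by rank in the reproducible list. Crosses mark a point source with none within 100 bp in that replicate, as for 8 of the 27.

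By place, 15 of the 27 point sources lay within 500 bp of a start of some gene and 12 lay farther away. Those within 500 bp of a start of La, larp, Larp4B or Larp7 numbered 8, and of these 7 were upstream of the start and 1 was downstream. Introns held 13, intergenic sequence 11, the 3′ UTR 2 and the 5′ UTR 1. The nearest start belonged to another gene for 16 of the 27. No share over all reproducible point sources is given beside these counts by place. They therefore do not show whether the placement is particular to these genes.

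The limits of the lists fell among weak peaks. The lowest signal in the reproducible list was 201.4. Just inside it were the Dsor1 intron site near Larp7 (209.8) and a 3′ UTR site of Larp4B (211.9), and just outside were pooled point sources near Larp7 (195.2) and Larp4B (187.3). In all, the pooled list held 11 further point sources at the 4 loci, 7 of them with a q-value of 0.01 or less. The farthest counted point sources were 4624 bp outside larp, 4531 bp outside Larp4B, 2319 bp outside Larp7 and 1387 bp outside La, and the next ones were 9012 bp, 12325 bp, 5559 bp and 13289 bp away.

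Base composition at the point sources was low in G and C. The 27 windows had 34.3 ± 6.99% GC (SD over windows), and windows centred 500 bp to either side had 44.6%. In 22 of the 27 (81.5%) the point source was below its own flanks. Over all 9624 reproducible point sources the values were 33.3% at the point source and 43.6% in the flanks, with 79.3% below their flanks. Larp4B was the least marked, at 38.9% with 4 of its 8 windows below their flanks, and its 3′ UTR site at chr3L:3234867 had 53.5%.

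**Figure D5:**
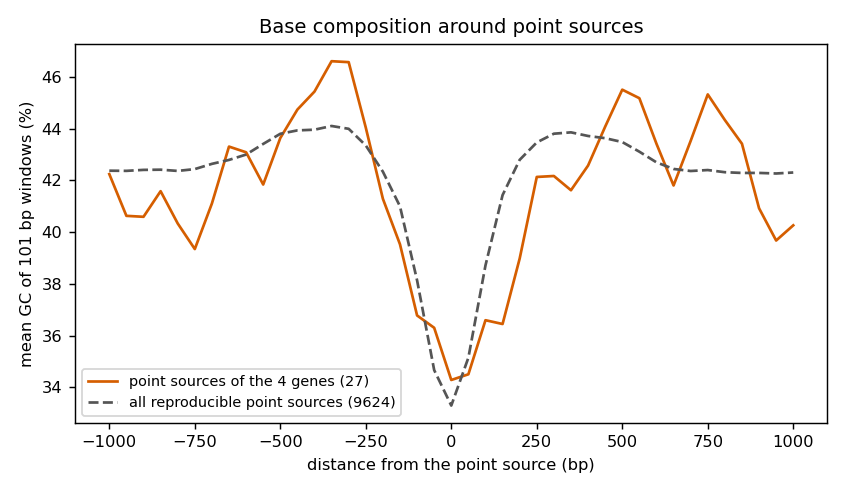
Mean GC content of the windows against distance from the point source along the plus strand, for the 27 point sources of the 4 genes (solid) and all 9624 reproducible point sources (dashed). Both lines are lowest at the point source, at 34.3% and 33.3%.

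The words searched on both strands were TATCGATA, the element bound by DREF, and CGATA, which lies within it, then GGTCACACT, the word GAGAG of the GAGA factor, the word CAGGTAG of Zelda, the E-box words CACGTG and also CAGCTG, the TATA box word TATAAA, and GCGATAGC. To these was added TTTAAAAA, the 8-base word most in excess at point sources over flanks on the chromosomes that hold none of the 4 genes, at 6.36% against 1.75% of windows. At least one of the words was in 11 of the 27 windows (40.7%), against 49.2% of all reproducible windows. The strongest larp window, chr3R:28326552-28326652, held none of them, nor did the windows at the strongest promoter point sources of La and Larp7. The second La site, chr2L:20350332, held CGATA and, on the La strand, TATAAA.

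Matches were few and none was more than a handful of windows. TTTAAAAA was in 2 of the 27 windows (7.41%), against 6.64% of all, at the larp-RD start and at the Larp4B promoter point source. TATCGATA was in 1 (3.70%), against 1.68%, at the strongest site in the Larp4B flank, where it begins at base 51, the point source itself. TATAAA was in 5 (18.5%), against 23.9%, CGATA in 3 (11.1%, with 1 of them inside TATCGATA), against 15.4%, and GAGAG in 3 (11.1%), against 8.27%. All 3 windows with GAGAG were counted with larp, though 1 of them, at chr3R:28340141, lies in the upstream flank, 193 bp upstream of Moca-cyp. The one in the 5′ UTR near larp-RF held 6 matches, overlapping ones counted. The other words were in 0 of the 27: GGTCACACT, in 0.842% of all windows, CAGGTAG, in 0.488%, CACGTG, in 0.675%, CAGCTG, in 3.20%, and GCGATAGC, in 0.281%.

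Genes with the most similar promoter pattern were sought among the 5512 protein-coding genes with a promoter point source in all 3 replicate lists, by distance in log2(signal over list median) over 3 replicates. For larp, the nearest were mRpS23, a mitochondrial ribosomal protein gene, and CenG1A, which share a single site at 242, 207 and 232 times the median and a distance of 0.23. Next came Dad1, a gene of the oligosaccharyltransferase complex, at 141, 104 and 131 times and a distance of 1.57. The larp values thus had 1 close match, a single site, among these genes. That site is the strongest peak elsewhere in each replicate list, already set against larp above. Since larp was selected for holding the top peak, few close matches follow from that choice and are no separate result.

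For La, the nearest were Mondo (distance 0.10), east (0.13) and CG1582 (0.13), with values between 2.30 and 5.48 times the median. For Larp4B this measure took the strongest point source within 500 bp of a start in each list, which was not the reproducible one: it lay 336 bp and 488 bp downstream of the Larp4B-RB start in replicates 1 and 2 and 360 bp upstream in replicate 3. These had 2.71, 1.86 and 1.74 times the median, and the nearest genes were nst (0.16), bic (0.16) and Tmtc3 (0.18). Larp7 was not eligible, as it had no promoter point source in replicate 1. These likenesses cover 3 numbers per gene and describe peak strength only.

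A chosen list of 32 genes, here called partners, was set beside the family, 31 of them protein-coding. It was drawn up from partners of La-motif proteins in flies or of their orthologs. It takes in other members of the same complexes and pathways, so direct partnership is not implied for each gene. Of the 31, 17 (54.8%) had a reproducible promoter point source, against 32.0% of protein-coding genes. Of the 31, 18 were divergent, against 30.6% of protein-coding genes, and 13 of these 18 had one, against 54.8% of divergent protein-coding genes. By role, the count was 8 of 15 for RNA polymerase III and its factors, 4 of 6 for the TOR pathway, 2 of 4 for P-TEFb and its regulators, 2 of 4 for poly(A) and cap binding, and 1 of 2 for the mitochondrial outer membrane pair.

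The strongest partner was Polr1D, which encodes a subunit shared by RNA polymerases I and III, with a pooled signal of 6749.7 (rank 92, and ranks 40, 73 and 323 in replicates 1, 2 and 3). It was followed by bin3, for the methyltransferase that caps 7SK, at 3309.8 (rank 360). Then came the RNA polymerase III initiation factors Bdp1 at 2887.0 and Brf at 2829.3, the polymerase subunit gene Polr3E at 2789.7, and mTor, the TOR kinase gene, at 1173.4. The last had no promoter point source in replicate 1, and the other 5 ranked at 855 or better in every replicate. All 6 were stronger than the promoter sites of La, Larp4B and Larp7 and far below that of larp. Each of the 6 also had a start of another gene on the opposite strand within 500 bp. To which of these starts the signal belongs was not tested.

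Genes of the same particles were not alike in the reproducible list. The 7SK RNA gene snRNA:7SKa had a promoter point source with a signal of 528.5, near that of Larp7 at 491.4, and CycT, the cyclin of P-TEFb, had one. Cdk9, its kinase, and Hexim, its inhibitor, had none in the reproducible list, though Cdk9 was found in all 3 replicates at ranks of 10962, 9906 and 13820. Hexim was found in replicates 1 and 2 at ranks of 4802 and 7578. CycT, too, was found in replicates 1 and 2 and not in replicate 3, at ranks of 4051 and 6072, so these genes were similar by replicate. Others without one included eIF4E1, eIF4G1, raptor, Lst8, Polr3A, Polr3B, Polr3C, Polr1C, Maf1, Tbp and Pink1. Of all 14 genes without one, 7 had a promoter point source in the pooled list, where the count was 24 of 31, against 47.8% of protein-coding genes.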

How the data were processed

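The series holds ChIP-seq peak lists of grau-eGFP from whole embryos, 1 group of 3 biological replicates. The authors deposited a list for each replicate, a pooled list and a reproducible list on dm6, per the labels. Each gives a signal per peak on a scale that was not stated, a −log10 q-value, and the offset of the point source, per the file headers and values. Peaks were called on the alignments of each replicate, or of all 3, together with 1 further file, per the deposited file descriptions. The aligner, the peak caller and the reproducibility threshold are not given in the sources used here. Each replicate list and the pooled list held 30000 peaks, with median signals of 51.3, 38.7 and 39.0 in replicates 1, 2 and 3 and 106.6 in the pooled list. Read depth is unknown, so no counting interval is given. The 9624 reproducible point sources were the 9624 strongest of the pooled list and shared 1 q-value, so the signal ranked them.

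Genes and starts were those of Ensembl release 115, without transposable elements and pseudogenes. Point sources were matched between lists within 100 bp. Flanks of 5 kb, a promoter distance of 500 bp and windows of 50 bases on either side of a point source were used. Python 3.11.15, numpy 2.4.6, pandas 2.3.3 and matplotlib 3.10.9 were used, and the functions were tested on simulated peaks. The members, the lists and the partner genes were chosen with earlier results of these data known, so no test was made. Shares over all genes or peaks stand beside most counts. The counts by place and those of the further pooled point sources have none and describe these loci only.

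Named genes were the 4 members, the genes at their point sources, the 6 partners with the strongest promoter point sources and those without, of which 1 is not reported here, and the 3 nearest genes in promoter pattern for each eligible member. CycT and the 7SK RNA gene fall outside this rule and were named after their values were seen.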

Additional observations from a re-analysis of the deposited data

How the results depend on the processing

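Of 87 alternatives computed, 70 moved a count by no more than 1.5 times or a value by less than its spread, and 17 moved more. Keeping only the reproducible peaks of higher signal, down to the median of 439.2, left promoter point sources at 2 of the 4 genes (larp and Larp7) and at 11 of the partners, and left 12 of the 27 point sources. Dividing by the median of the 9624 strongest peaks of each list gave 65.3 for larp, 0.934 for La, 0.775 for Larp4B and 1.16 for Larp7. In windows with 100 bases to either side, 19 of the 27 held at least one word, against 74.2% of all. A flank of 2 kb left 19 point sources (5 for Larp4B, 1 for Larp7) and one of 10 kb gave 30 (4 for Larp7). Leaving out 1 replicate gave 20 to 23 point sources, 3 to 4 genes and 15 to 16 partners. Those found in all 3 replicates were 15 at a match of 50 bp, 23 at 200 bp, and 15 within the 9624 strongest of each list. GC was 33.1% in windows of 51 bases and 35.4% in those with 100 bases to either side. The cause of these shifts was not tested, other than fewer peaks in the stronger part and longer windows. The data are limited to 1 group, peaks in place of reads, an unknown depth and no control list, and embryos of all stages and tissues are mixed.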
